A study of Mus musculus with 4 samples.

Results

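The cadherins and protocadherins were followed in the developing cerebral cortex of mice with and without a conditional loss of Lhx2, a LIM-homeodomain transcription factor of cortical progenitors. They were taken from a table of 13289 genes as every row whose symbol was Cdh followed by a number or began with Pcdh, leaving out the endothelial cadherin gene Cdh5. This rule found 77 genes, made up of 15 numbered cadherins, 50 clustered protocadherins (9 Pcdha, 20 Pcdhb and 21 Pcdhg genes) and 12 non-clustered protocadherins. No measured value entered the rule. Of the 22 numbered cadherins listed by subfamily, Cdh1, Cdh3, Cdh15, Cdh16, Cdh17, Cdh19 and Cdh26 are not analysed here.

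Polyadenylated RNA from fresh brain, with cerebral cortex named as the tissue, was sequenced at embryonic day 15 (E15) as 2 control libraries, titled WT, and 2 libraries titled Lhx2cKO, called Lhx2 cKO here and read as a conditional knockout. The Cre driver, the Lhx2 allele, the strain, the litter and the sex are not given in the sources used here, nor is whether the libraries of a group came from separate embryos. P-values therefore set a difference against the spread between these libraries, which may be technical. For each gene that spread was drawn strongly towards the trend over all genes, so it reflects little of the gene's own libraries. With 2 libraries per group, 1 library can decide a value, and libraries whose removal changed a call are named beside the genes given in full.

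Cadherins are membrane proteins whose extracellular repeats bind calcium and hold cells together, mostly by binding the same cadherin on a neighbouring cell. Classical cadherins of types I and II carry a cytoplasmic tail that binds catenins and through them actin, and in the embryonic cortex they hold the ventricular surface together and mark layers, areas and axon tracts. Non-clustered protocadherins of the delta groups are single genes with roles in cell sorting, axon growth and synapse formation. The clustered protocadherins lie in 3 neighbouring gene arrays, in which each neuron uses a few of many alternative promoters, and the resulting surface combinations let a neuron tell its own branches from those of other neurons.

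Library totals over the analysed genes ranged from 22294237 to 24609627 counts, so that 3 counts, taken as the floor of detection, were 0.122 to 0.135 CPM, the count scaled to a common library size. Lhx2 itself stood at 316 and 287 CPM in control against 239 and 247 CPM in Lhx2 cKO, without overlap (log2 fold change -0.31, SE 0.097, adjusted p = 0.0191 by edgeR's quasi-likelihood test). That call was lost without control replicate 1 (adjusted p = 0.176), without Lhx2 cKO replicate 1 (0.102) and without Lhx2 cKO replicate 2 (0.0538), and which part of the gene was deleted is not given, so the count of the whole gene checks the labels only loosely. Of the defining genes of the cortex, Emx1 was at 119 and 107 CPM in control against 39.1 and 38.9 CPM in Lhx2 cKO, and Tbr1 at 239 and 242 against 251 and 256 CPM. Summed marker levels of other cells also differed between the groups. The 8 microglial markers, all 8 of them higher, summed to 111 to 112 CPM in control and 230 to 256 CPM in Lhx2 cKO, and the 6 Cajal-Retzius markers measured, 4 of them higher, to 295 to 326 and 447 to 570.0 CPM. The 8 endothelial markers, 6 of them higher, went from 180 to 220 up to 270.1 to 316 CPM, and the 6 oligodendrocyte precursor markers, 5 of them higher, from 46.9 to 53.6 up to 87.9 to 96.5 CPM. The 5 intermediate progenitor markers, 4 of them lower, summed to 628 to 630.3 CPM in control and 359 to 376 CPM in Lhx2 cKO. None of the genes measured in these 5 lists was at 0 in any library. The 8 neuron markers, 1 called higher and 1 lower, summed to 5573 to 5744 CPM in control and 5829 to 6145 CPM in Lhx2 cKO. For the 8 radial glia markers, 1 higher and 2 lower, the sums were 718 to 772 and 710.5 to 731 CPM. These sums hide a fall of Pax6, from 123 and 134 CPM in control to 57.5 and 51.7 CPM in Lhx2 cKO (log2 -1.24). Nes was the other lower marker (log2 -0.40) and Slc1a3 the higher one (log2 0.27). The 7 interneuron markers measured, 2 of them higher, summed to 208 to 241.5 and 281 to 289 CPM. For the 6 mural and meningeal markers measured, 2 of them lower, the sums were 161 to 164 and 132 to 136 CPM. The part of these markers in the results on cadherins and protocadherins was not tested. In bulk tissue, fewer cells of a type and less RNA per cell cannot be told apart.

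To show the promoters of the genes the results turn on, the 250 bases upstream of the annotated start are printed for the member with the smallest p (Pcdh10), the type II cadherin with the smallest p in its group (Cdh6) and the non-clustered member that fell (Pcdh9), from RefSeq on GRCm38.p6, 5′ to 3′ on the gene's strand, with CpG dinucleotides in capitals. The Pcdh10 window is chr3:45378148-45378397 on the plus strand, the Cdh6 window chr15:13173676-13173925 on the minus strand and the Pcdh9 window chr14:93890680-93890929 on the minus strand, 1 of the 2 entries of that gene.
Pcdh10: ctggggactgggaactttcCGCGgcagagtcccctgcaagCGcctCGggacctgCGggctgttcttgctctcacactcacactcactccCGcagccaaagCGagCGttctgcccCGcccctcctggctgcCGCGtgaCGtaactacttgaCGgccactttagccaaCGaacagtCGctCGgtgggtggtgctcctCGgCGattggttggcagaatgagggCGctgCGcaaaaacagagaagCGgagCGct
Cdh6: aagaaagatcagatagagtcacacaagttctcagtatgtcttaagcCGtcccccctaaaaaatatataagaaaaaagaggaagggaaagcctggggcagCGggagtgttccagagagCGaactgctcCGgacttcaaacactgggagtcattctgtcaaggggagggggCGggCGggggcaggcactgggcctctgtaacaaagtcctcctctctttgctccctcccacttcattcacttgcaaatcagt
Pcdh9: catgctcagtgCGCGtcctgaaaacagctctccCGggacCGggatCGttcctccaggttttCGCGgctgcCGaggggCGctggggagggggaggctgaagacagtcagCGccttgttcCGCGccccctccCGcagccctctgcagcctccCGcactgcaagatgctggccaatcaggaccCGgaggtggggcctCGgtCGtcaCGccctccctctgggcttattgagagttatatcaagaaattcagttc
The Pcdh10 window held 22 CpG dinucleotides and was 63.2% G or C. Cdh6 had 6 in its window, at 51.2%, and Pcdh9 had 18, at 63.6%. Over all 32851 RefSeq promoter windows of the same 250 bases, the median was 6 CpG and 52.4%, so that of Cdh6 was ordinary and those of Pcdh10 and Pcdh9 were rich in CpG, although 1 of the latter pair of genes rose and the other fell. The palindrome TAATTA, the core letters of many homeodomain sites, was searched in the same windows, where both strands read alike. It occurred in 1 of the 23 windows of the 20 members with an entry (4.35%), that of Cdh7, and in 1590 windows of the whole set (4.84%). Such a match is a description of letters and no binding site.

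A gene was called when its adjusted p was under 0.05 in the comparison of Lhx2 cKO with control over all 13288 genes tested. Across all genes 20.8% were called, 11.6% as higher and 9.17% as lower. Among the 77 cadherins and protocadherins 20 (26%) were called, 18 (23.4%) as higher and 2 (2.60%) as lower, and 57 were not. The median log2 fold change of the 77 was 0.26, against 0.003 over all genes. Both Lhx2 cKO libraries lay above both control libraries for 36 members and below them for 8, and the groups overlapped for 33. Over all genes the corresponding background was 30.2% above and 29.1% below. Lhx2 cKO replicate 2 was above Lhx2 cKO replicate 1 for 55 of the 77 members, against 6925 of the 13288 genes tested. It was above for 12 of the 12 non-clustered protocadherins. The authors' deposited table had an adjusted p under 0.05 for the same 20 members. DESeq2 called 11 of them, and 6 members, Cdh4, Cdh6, Cdh13, Pcdh10, Pcdh18 and Pcdh19, were called in each fit tried and without each library in turn.

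The calls comprised 7 of 15 numbered cadherins (46.7%), 5 of 12 non-clustered protocadherins (41.7%) and 8 of 50 clustered protocadherins (16.0%). The clustered genes were counted less deeply, with single-library counts of 15 to 1061 and a median SE of 0.257 on the log2 scale, against 0.12 over all genes. Of the 19 members with a mean of at least 20 CPM 8 were called (42.1%), against 22.8% of all genes at that level, and of the 58 members below it 12 (20.7%), against 17.9%. Whether the classes differ in their shares was not tested.

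**Figure D1:**
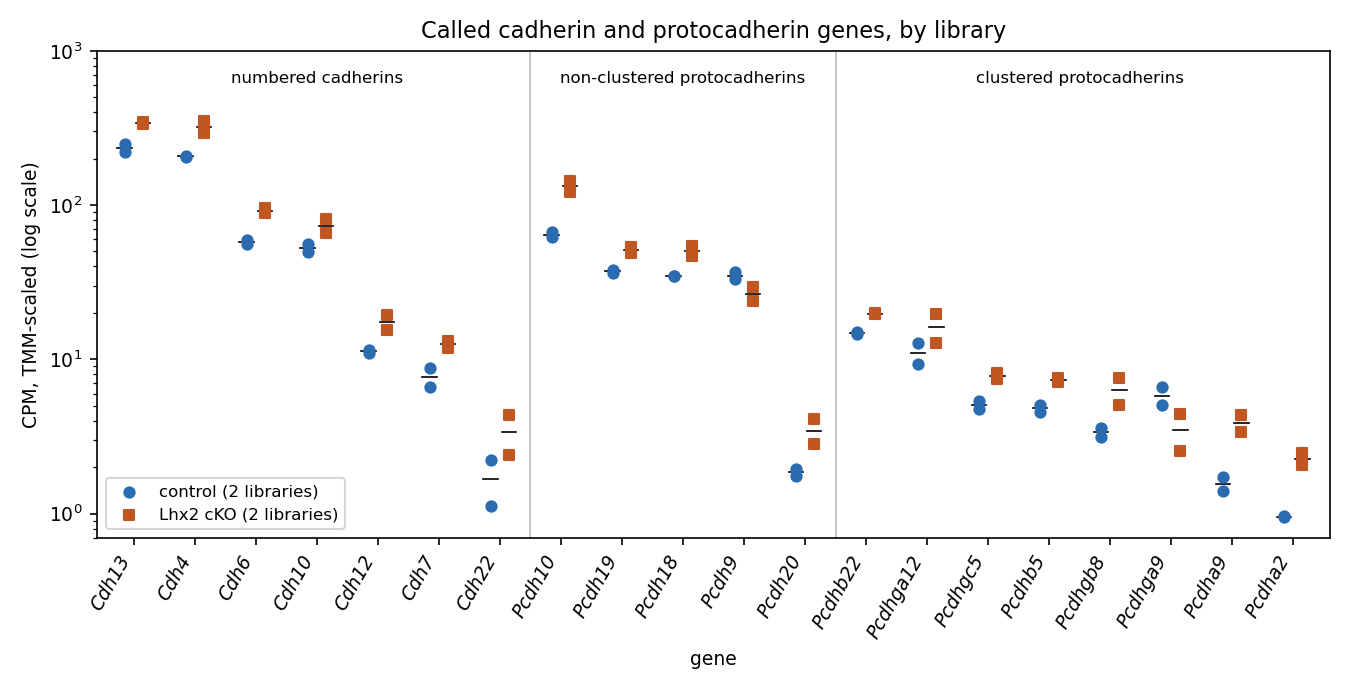
TMM-scaled CPM in each library (y axis, log scale) for the 20 called members (x axis), with a bar at each group's mean, and control and Lhx2 cKO libraries as separate points. The 18 members called as higher have both Lhx2 cKO points above both control points, and Pcdh9 and Pcdhga9 have them below.

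Among the type I classical cadherins, Cdh4 rose and Cdh2 passed no test. Cdh2 encodes N-cadherin, the main cadherin of the apical junctions of radial glia. It was at 698 and 770.2 CPM in control and at 739 and 829 CPM in Lhx2 cKO, groups that overlap (log2 fold change 0.10, 95% interval -0.12 to 0.31, adjusted p = 0.598). Cdh4 (ENSMUSG00000000305.13) encodes R-cadherin, a close relative of N-cadherin with a more restricted pattern in retina and forebrain. It was at 206 and 209 CPM in control and at 295 and 351 CPM in Lhx2 cKO. Both Lhx2 cKO values lay well above the nearly equal control values, a 1.56-fold rise (log2 0.64, SE 0.100, adjusted p = 5.03e-06). Cdh2 remained the cadherin with most reads, but its share of the summed CPM of the 15 numbered cadherins was 43.5% and 44.8% in control against 38.7% and 39.4% in Lhx2 cKO.

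Type II classical cadherins bind in more selective combinations than type I. Of 11 members 5 were called as higher (45.5%, against 11.6% of all genes) and none as lower, with a median log2 fold change of 0.63. Cdh6 (ENSMUSG00000039385.6), known for sharp boundaries between regions of the embryonic forebrain, was at 55.8 and 59.3 CPM in control and 95.02 and 89.3 CPM in Lhx2 cKO. The libraries of each group lay close together, and the 1.60-fold rise (log2 0.68, SE 0.098, adjusted p = 1.07e-06) was the most strongly supported among the numbered cadherins. Its log2 fold change ranged from 0.62 to 0.72 without each library in turn. Cdh10 was at 49.4 and 55.5 CPM in control against 65.9 and 81.1 CPM in Lhx2 cKO (log2 0.49, SE 0.106, adjusted p = 6.52e-04). Lhx2 cKO replicate 2 was the higher of its group, and without it the call was lost (log2 0.32, adjusted p = 0.0771).

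The other type II cadherins called were lower in level and rested on fewer reads. Cdh12, a brain cadherin of neurons, was at 11.1 and 11.6 CPM in control and 15.6 and 19.3 CPM in Lhx2 cKO (log2 0.63, SE 0.154, adjusted p = 0.00238), and the call was lost without Lhx2 cKO replicate 2 (0.112). Cdh7 was at 6.60 and 8.72 CPM against 11.9 and 13.1 CPM (log2 0.70, SE 0.178, adjusted p = 0.00327), a call lost without control replicate 1 (0.107). Cdh22, also a brain cadherin, was at 2.23 and 1.12 CPM against 4.35 and 2.39 CPM (log2 1.01, SE 0.367, adjusted p = 0.0436). Its lower Lhx2 cKO library stood just above its higher control library, and its log2 fold change was 1.57 without control replicate 1. It was not called without control replicate 2 (log2 0.60, adjusted p = 0.344), without Lhx2 cKO replicate 1 (log2 0.52, adjusted p = 0.494) or by DESeq2 (0.118).

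The remaining type II cadherins passed no test. Cdh8, which marks cortical layers and areas and lies at synapses, was at 80.7 and 93.0 CPM in control and 98.4 and 109 CPM in Lhx2 cKO, without overlap but short of the threshold (log2 0.26, 95% interval 0.06 to 0.46, adjusted p = 0.0588). It was called with upper-quartile factors (0.0491), with a replicate block (0.0399), without control replicate 2 (log2 0.36, adjusted p = 0.0215) and without Lhx2 cKO replicate 1 (log2 0.33, adjusted p = 0.0389), while its log2 fold change was 0.15 without control replicate 1 and 0.17 without Lhx2 cKO replicate 2. Cdh11, also strong in mesenchyme, was at 53.7 and 64.1 against 62.9 and 68.4 CPM (log2 0.16, 95% interval -0.05 to 0.37, adjusted p = 0.308). Cdh24 was the only strongly expressed numbered cadherin with a negative estimate, at 212 and 194 CPM in control and 182 and 187 CPM in Lhx2 cKO (log2 -0.14, 95% interval -0.33 to 0.05, adjusted p = 0.324). Weakly expressed members went both ways, with Cdh20 at -0.69 (adjusted p = 0.078), Cdh9 at 0.89 (0.126) and Cdh18 at 0.73 (0.221), each as a log2 fold change.

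Of the other numbered cadherins, Cdh13 encodes T-cadherin, which is anchored to the membrane by a lipid and lacks the catenin-binding tail. It was at 220.2 and 248 CPM in control and at 333 and 347 CPM in Lhx2 cKO. The groups were well apart (log2 0.54, SE 0.099, adjusted p = 5.91e-05), and the gene was called without each library in turn, with log2 values of 0.45 to 0.63. Cdh23, a long cadherin of the hair cell tip link, was close to the depth limit at 0.52 to 1.87 CPM over the 4 libraries and was not called (log2 0.67, adjusted p = 0.355).

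Per kilobase of the deposited gene length, the order of the cadherin levels in control was Cdh2 (91.0 ± 6.32 CPM per kb, SD, n = 2), Cdh24 (58.2 ± 3.65), Cdh4 (28.6 ± 0.322), Cdh13 (20.8 ± 1.72) and Cdh8 (11.2 ± 1.12), each above the next by more than their spread. Cdh11 (6.62 ± 0.826) and Cdh6 (6.38 ± 0.271) followed and did not differ beyond their spread. Cdh4 was at 44.5 ± 5.49 CPM per kb in Lhx2 cKO and kept its place as the third cadherin. The summed CPM of the 15 numbered cadherins was 1605 and 1721 in control against 1911 and 2106 in Lhx2 cKO, or, without Cdh2, 907 and 951 against 1172 and 1277.

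**Figure D2:**
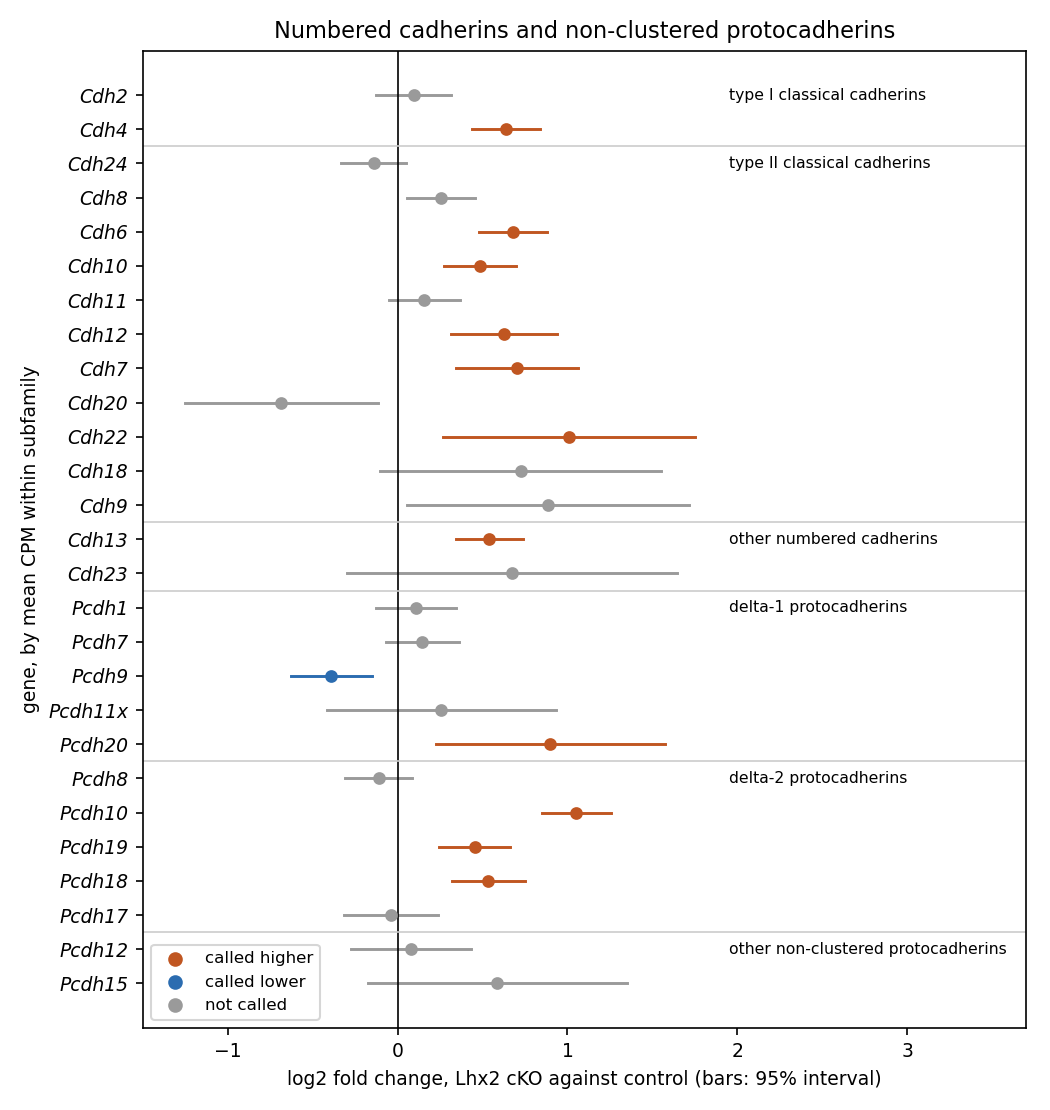
Log2 fold change between Lhx2 cKO and control (x axis, positive when higher in Lhx2 cKO) with 95% intervals for the 15 numbered cadherins and the 12 non-clustered protocadherins, by subfamily and in order of mean CPM within it (y axis). The intervals of Cdh4, Cdh6, Cdh13 and Pcdh10 lie far to the right of 0, that of Cdh2 spans 0, and Pcdh9 is the called gene to the left.

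The delta-2 protocadherins, whose tails bind regulators of the actin network, held the member with the smallest p among all 77. Pcdh10 (ENSMUSG00000049100.16), which is needed for the growth of forebrain axon tracts, was at 61.8 and 66.5 CPM in control and at 122 and 144 CPM in Lhx2 cKO. It was 2.07-fold higher (log2 1.05, SE 0.100, adjusted p = 7.40e-11), with log2 values of 0.92 to 1.17 without each library in turn. Per kilobase it stood at 4.04 ± 0.21 CPM in control, within the spread of Pcdh7 (4.21 ± 0.555), and at 8.37 ± 0.983 CPM in Lhx2 cKO, within the spread of Pcdh1 (8.26 ± 1.92) and above Pcdh7 (4.66 ± 0.409, each SD, n = 2).

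Pcdh18 and Pcdh19 rose less. Pcdh18 was at 34.9 and 34.5 CPM in control against 46.5 and 54.0 CPM in Lhx2 cKO (log2 0.53, SE 0.106, adjusted p = 1.98e-04). Pcdh19, an X-linked gene that causes an epilepsy in humans when only some cells carry a working copy, was at 38.1 and 36.4 CPM against 48.9 and 53.1 CPM (log2 0.45, SE 0.103, adjusted p = 0.00108). For both genes the control libraries were nearly equal and both Lhx2 cKO libraries higher. Of other X- and Y-linked transcripts, Xist was at 1918 and 1962 CPM in control and 1598 and 1600.3 CPM in Lhx2 cKO (adjusted p = 0.0803), and the Y-linked Eif2s3y at 52.5 and 57.8 against 74.0 and 73.0 CPM. The other Y-linked genes read were not called, Kdm5d being at 21.5 and 22.5 against 30.9 and 24.5 CPM (adjusted p = 0.0572), while the libraries of Ddx3y (log2 0.16) and Uty (log2 0.07) overlapped between the groups. Transcripts of both kinds were present in every library, and their part in the difference of Pcdh19 was not tested.

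The other delta-2 members passed no test. Pcdh8, an activity-regulated protocadherin and per kilobase the strongest of the non-clustered group (32.8 ± 2.65 CPM per kb in control, SD, n = 2), was at 140.3 and 157 CPM in control and 128 and 148 CPM in Lhx2 cKO (log2 -0.11, 95% interval -0.31 to 0.09, adjusted p = 0.470). In the GENCODE M21 annotation 9.61% of its exon bases lie opposite the antisense gene Gm9748, and whether the counting used strand is not stated. Pcdh17 was at 19.7 and 24.8 CPM in control and 19.1 and 24.2 CPM in Lhx2 cKO (log2 -0.04, 95% interval -0.32 to 0.24, adjusted p = 0.881), and its sign turned without control replicate 2 (0.14) or Lhx2 cKO replicate 1 (0.12). The libraries of both genes overlapped between the groups.

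The delta-1 protocadherins, a group defined by an additional conserved motif in the tail, moved in both directions. Pcdh9 fell, from 33.1 and 36.6 CPM in control to 23.8 and 29.4 CPM in Lhx2 cKO (log2 -0.39, SE 0.118, adjusted p = 0.0141, 1.31-fold lower). Both Lhx2 cKO libraries were below both control libraries, yet the call was lost without control replicate 2 (log2 -0.32, adjusted p = 0.12), without Lhx2 cKO replicate 1 (log2 -0.25, adjusted p = 0.231) and with DESeq2 (0.0511). Pcdh20 was called as higher close to the threshold, at 1.94 and 1.76 CPM in control and 2.81 and 4.09 CPM in Lhx2 cKO (log2 0.90, SE 0.334, adjusted p = 0.0498). It was not called with DESeq2, limma-voom, DESeq2-type size factors, no filter or a replicate block, nor without control replicate 1 (log2 0.96, adjusted p = 0.121), control replicate 2 (log2 0.83, adjusted p = 0.163) or Lhx2 cKO replicate 2 (log2 0.60, adjusted p = 0.463).

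Pcdh7 and Pcdh1 were not called. Pcdh7 was at 40.5 and 48.8 CPM in control and 46.4 and 52.5 CPM in Lhx2 cKO (log2 0.15, adjusted p = 0.367), with 21.1% of its exon bases opposite the gene 4932441J04Rik. Pcdh1 had the widest spread within groups among these, at 74.7 and 60.1 CPM in control and 60.7 and 84.6 CPM in Lhx2 cKO (log2 0.11, adjusted p = 0.569), and its sign turned without control replicate 2 (-0.04) or Lhx2 cKO replicate 2 (-0.15). Without Lhx2 cKO replicate 1 it was called (log2 0.33, adjusted p = 0.048). X-linked Pcdh11x, at 2.07 to 4.40 CPM over the 4 libraries, was not called either (log2 0.26, adjusted p = 0.647). Of the last non-clustered pair, Pcdh12, a protocadherin of endothelial cells, was at 10.1 and 9.64 CPM in control and 9.32 and 11.5 CPM in Lhx2 cKO (log2 0.08, 95% interval -0.27 to 0.43). Cdh5, the endothelial cadherin left out by the rule, was at 12.2 and 14.4 against 19.0 and 25.03 CPM (log2 0.72, adjusted p = 3.00e-04). Pcdh15, the partner of Cdh23 in the tip link, passed no test (log2 0.59, adjusted p = 0.295).

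The summed CPM of the 5 delta-2 protocadherins was 295 and 319 in control against 365 and 423 in Lhx2 cKO, without overlap. For the 5 delta-1 protocadherins it was 154 and 150 in control against 136 and 175 in Lhx2 cKO, with both control sums between the Lhx2 cKO sums.

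**Figure D3:**
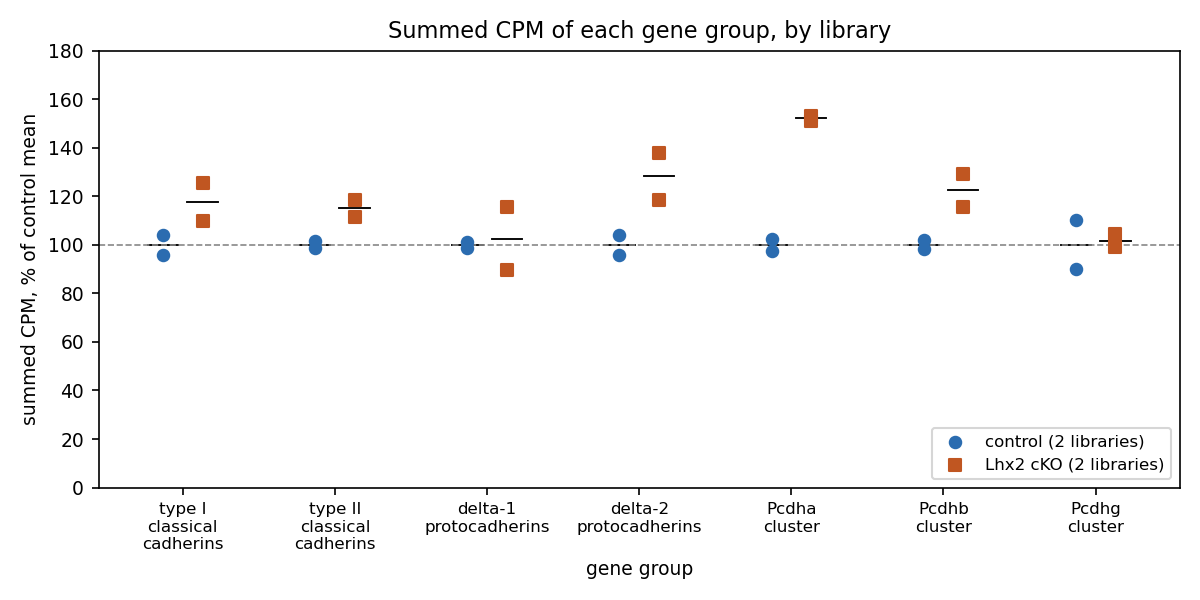
Summed CPM of gene groups in each library as a percent of the control mean, with one point per library and a bar at each group's mean. Shown are type I and II classical cadherins, delta-1 and delta-2 protocadherins and the Pcdha, Pcdhb and Pcdhg arrays. The other numbered cadherins and other non-clustered protocadherins are not shown. The Pcdha sums of the Lhx2 cKO libraries lie furthest above control, while the Pcdhg and delta-1 sums overlap between the groups.

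The clustered protocadherins were weakly expressed gene by gene, and their values share reads in a way the files do not settle. In M21, 48.6% to 59.9% of the exon bases of each of the 9 Pcdha genes lie on the same strand as exons of another gene, as do 31.5% to 66.8% for each of the 21 Pcdhg genes, because every variable exon is joined to common 3′ exons. Pcdhb genes have no common exons, and 2 of the 20 overlap a neighbour by at most 9.67%. Whether reads in shared exons were counted is not stated, so single Pcdha and Pcdhg values are uncertain as to which promoter they came from. Pcdha7 and Pcdha6, with 115 and 140.0 counts over the 4 libraries, lie near the lowest such total in the table, 102, so that a filter on low values can have removed others, and counts over those measured support nothing beyond them.

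Of the 9 Pcdha genes 2 were called as higher (22.2%, against 11.6% of all genes), and the estimates of all 9 were above 0. Their median log2 fold change of 0.54 became 0.34 without control replicate 1. Pcdha9 was at 1.73 and 1.4 CPM in control and 3.38 and 4.35 CPM in Lhx2 cKO (log2 1.30, SE 0.334, adjusted p = 0.00365), and Pcdha2 at 0.949 and 0.960 CPM against 2.07 and 2.48 CPM (log2 1.25, SE 0.412, adjusted p = 0.0253). The Lhx2 cKO libraries were clearly above control for both, but the call of Pcdha9 was lost without Lhx2 cKO replicate 2 (adjusted p = 0.0795). That of Pcdha2 was lost without either control library (0.103 and 0.0821), without Lhx2 cKO replicate 2 (0.186) and with DESeq2 (0.062). Summed over the 9 genes, Pcdha was at 17.4 and 18.2 CPM in control and 27.2 and 26.9 CPM in Lhx2 cKO, or 152% of control. Both pairs of libraries lay close together (17.8 ± 0.624 and 27.1 ± 0.246, SD, n = 2). The sum was not tested, and an exact permutation test of 2 libraries against 2 cannot go below a two-sided p of 0.333.

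**Figure D4:**
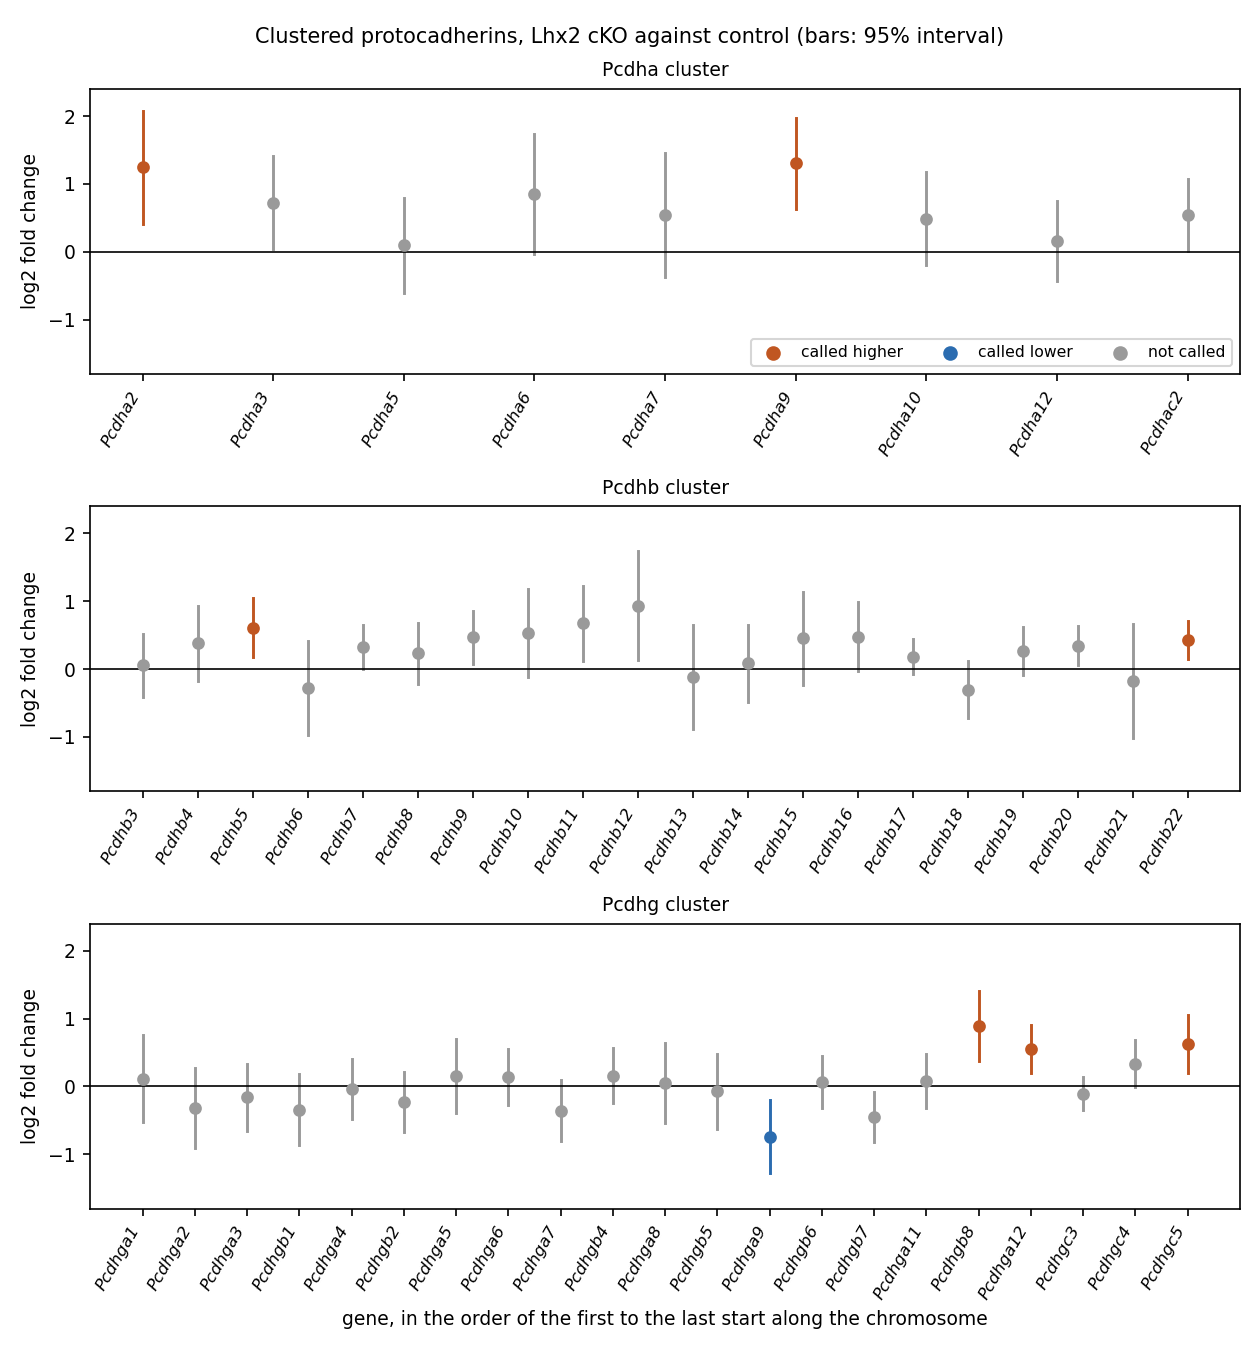
Log2 fold change between Lhx2 cKO and control (y axis, positive when higher in Lhx2 cKO) for the 50 clustered protocadherins in their annotated order along the chromosome (x axis), with 95% intervals. All 9 Pcdha estimates lie above 0, as do 16 of 20 Pcdhb estimates, and the 21 Pcdhg estimates lie on both sides.

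The Pcdhb genes are single-exon genes in the middle array. Of the 20 genes 2 were called as higher, a share below the 11.6% of all genes. Of the 20 estimates 16 were above 0, with a median log2 fold change of 0.34 that became 0.19 without Lhx2 cKO replicate 2. Pcdhb22 was at 14.9 and 14.6 CPM in control and 19.6 and 19.98 CPM in Lhx2 cKO (log2 0.43, SE 0.140, adjusted p = 0.0247). Pcdhb5 was at 4.58 and 5.08 CPM against 7.16 and 7.62 CPM (log2 0.61, SE 0.216, adjusted p = 0.0375). Replicates of both genes were close together, yet neither was called once any 1 library was left out (adjusted p 0.066 to 0.12 for Pcdhb22 and 0.0665 to 0.208 for Pcdhb5) or with DESeq2 (0.0595 and 0.0904). Pcdhb17, the strongest Pcdhb gene by reads in control, was at 19.96 and 21.8 CPM against 22.6 and 24.8 CPM and was not called (log2 0.18, adjusted p = 0.336). Summed over the 20 genes, Pcdhb was at 129 and 134 CPM in control and 152 and 170.4 CPM in Lhx2 cKO, 123% of control and without overlap.

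The Pcdhg array showed no common direction. Of its 21 genes 3 were called as higher (14.3%, against 11.6% of all genes) and 1 as lower (4.76%, against 9.17%). Of its estimates 11 were above 0 and 10 below. Its median log2 fold change of 0.05 turned to -0.13 without control replicate 2 and to -0.07 without Lhx2 cKO replicate 2. Pcdhgb8 was at 3.13 and 3.60 CPM in control and 7.52 and 5.05 CPM in Lhx2 cKO (log2 0.90, SE 0.255, adjusted p = 0.00898), a call lost without control replicate 1 (0.0664) or Lhx2 cKO replicate 1 (log2 0.58, adjusted p = 0.232). Pcdhga12 was at 12.7 and 9.36 CPM against 19.6 and 12.8 CPM (log2 0.55, SE 0.175, adjusted p = 0.0198). Its lower Lhx2 cKO library barely exceeded its higher control library, and the call was lost without control replicate 2 (log2 0.34, adjusted p = 0.228), without Lhx2 cKO replicate 1 (log2 0.21, adjusted p = 0.533) and with DESeq2 (0.0900).

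Pcdhgc5, a C-type gene at the 3′ end of the array that is regulated apart from the randomly chosen promoters, was at 5.36 and 4.76 CPM in control and 8.13 and 7.49 CPM in Lhx2 cKO (log2 0.63, SE 0.211, adjusted p = 0.0293). It was called in none of the 4 fits that left out 1 library (adjusted p 0.0666 to 0.152) nor with DESeq2 (0.0746). Pcdhga9 was the clustered gene called as lower, at 6.60 and 5.04 CPM against 2.55 and 4.40 CPM (log2 -0.74, SE 0.266, adjusted p = 0.0411). The call was lost without control replicate 1 (log2 -0.55, adjusted p = 0.308), without Lhx2 cKO replicate 1 (log2 -0.40, adjusted p = 0.383) and with DESeq2 (0.108), and leaving out Lhx2 cKO replicate 2 gave -1.19 on the log2 scale.

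Pcdhgc3, the C-type gene with the largest share of Pcdhg reads (19.1% to 23.8% over the 4 libraries), was at 43.8 and 33.9 CPM in control and 31.6 and 40.5 CPM in Lhx2 cKO. The groups overlapped (log2 -0.11, adjusted p = 0.594), and the sign turned without control replicate 1 (0.08) or Lhx2 cKO replicate 1 (0.06). In M21, 28.4% of the exon bases of Pcdhgc3 lie opposite the gene BC037039. Summed over the 21 genes, Pcdhg was at 184 and 150 CPM in control and 165 and 175 CPM in Lhx2 cKO, so that both Lhx2 cKO libraries lay between the control libraries. The log2 ratio of the group means was 0.03, and it turned to -0.11 without control replicate 2. Control replicate 1 was above control replicate 2 for 15 of the 21 genes, against 6616 of the 13288 genes tested. The 47 members not given in full here, whichever class they belong to, had log2 fold changes of -0.69 to 0.94, and none was called.

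Genes that act with cadherins were read from 4 lists, with a log2 fold change and an adjusted p for each gene called. Of 16 measured catenins and adherens junction partners 1 was called as higher and 2 as lower, with a median log2 fold change of 0.03. The 18.8% called were near the 20.8% of all genes. Adam10, the protease that sheds N-cadherin, rose by 0.27 (adjusted p = 0.0497), while the polarity gene Pard3 (-0.58, 3.18e-04) and the junction protein gene Nectin3 (-0.45, 0.00329) fell. Ctnnb1, encoding beta-catenin, was at 309 and 351 CPM in control and 365 and 371 CPM in Lhx2 cKO and passed no test (log2 0.16, adjusted p = 0.289).

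Among 10 measured large cadherins of the Fat, Dachsous, flamingo and calsyntenin families, 3 rose and 2 fell. Together they were a larger share than the 20.8% called over all genes, and that difference was not tested. Celsr1, a planar polarity cadherin of progenitors, fell by 1.22 on the log2 scale (adjusted p = 5.02e-13), and Celsr2 by 0.48 (6.32e-04). Clstn2 (log2 0.50, adjusted p = 2.59e-04), Fat4 (0.45, 9.40e-04) and Clstn3 (0.37, 0.00567) rose. Of the 13 regulators of clustered protocadherin promoters, which include CTCF and the cohesin genes that loop a chosen promoter to its enhancer, none rose and 3 fell, with a median of -0.16. The 23.1% called were near the 20.8% of all genes, as for the catenins and their partners. The 3 that fell compare with 9.17% called as lower over all genes. Those that fell were the cohesin loader gene Nipbl (-0.36, 0.00474), the cohesin release gene Wapl (-0.35, 0.0138) and Wiz (-0.29, 0.0233), and Ctcf was not called (-0.25, adjusted p = 0.0589). Of 10 cytoplasmic partners of protocadherins, Taok2 fell (-0.32, 0.0155) and the other 9 were not called. That share was near the 9.17% of all genes called as lower.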

How the data were processed

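Bulk RNA-seq counts of 2 control and 2 Lhx2 cKO libraries of E15 cortex were used as the authors deposited them, whole-number read counts per gene. Per the submitters' processing notes, Trim Galore, Subread, featureCounts and edgeR were used with the mouse build mm39, and the counting options are not given in the sources used here. The authors' deposited log2 fold change and log2 CPM were not used for results, nor was the authors' deposited -log10 of the adjusted p, and their deposited adjusted p-value was used only for a count of calls, and gene lengths, in bases as deposited by the authors, only for levels per kilobase.

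CPM were computed from the counts and each library's total multiplied by its TMM factor (0.973 to 1.02). Differences were tested with edgeR 4.0.16 in R 4.3.3 (limma 3.58.1, TMM, filterByExpr with a minimum count of 10, glmQLFit and glmQLFTest, no covariate), two-sided, with Benjamini-Hochberg adjustment over 13288 genes. The common biological coefficient of variation was 8.27%. The prior degrees of freedom of the quasi-likelihood fit were 38.7, so each gene's spread was drawn strongly towards the trend over all genes. All 77 members passed the filter. The procedure was tested on simulated data. Replicates of a group differed by more than counting noise, with chi-square to degrees of freedom ratios of 13.9 and 14.3. Intervals and floors cover only counting error or the spread between libraries. Genes given in full are the called members and those with a mean of at least 20 CPM, up to 30 in all. Alternatives were RLE, upper-quartile and total-count scaling, no filter, a mean count of at least 50, DESeq2 1.42.0, limma-voom, a replicate block, an adjusted p under 0.01, and leaving out each library, where the lone library of a group is assumed to vary like the other group. Names, exon sharing and order came from GENCODE M21 (all 77 members matched), whose build, GRCm38, is not that of the counts, so no coordinates were applied to the counts. Promoters came from RefSeq on GRCm38.p6. The members and lists were chosen with earlier results of these data known.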

Additional observations from a re-analysis of the deposited data

How the results depend on the processing

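The genes called among the 77 members fell from 20 to 11 with DESeq2 and to 11 at an adjusted p under 0.01, and ranged from 13 to 18 without each library in turn. For the clustered protocadherins 8 calls became 2 with DESeq2, 2 at the stricter threshold and 4 to 5 without each library, and for the non-clustered protocadherins 5 became 3, 3 and 3 to 6. Among all members and among the clustered genes, each fit without 1 library also called genes that were not called with all libraries. The ranges without each library are therefore not numbers of calls that held. None of the 8 clustered calls held without each library in turn. Numbered cadherins had 5 to 8 calls in the alternatives run. Over all genes 2758 calls became 1697 at the stricter threshold and 1633 to 2396 without each library, lowest without Lhx2 cKO replicate 2 (1633) and control replicate 1 (1790). With DESeq2 the 2758 calls over all genes became 2170, a smaller relative loss than among the 77 members or the clustered genes. Lhx2 (log2 -0.31) was not called at an adjusted p under 0.01 and ranged from -0.38 to -0.25 without each library.

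Among the genes given in full and the summed levels of the Pcdha, Pcdhb and Pcdhg arrays, signs turned only when a library was left out. The delta-1 sum also depended on the library, at 136 CPM in Lhx2 cKO replicate 1 and 175 CPM in replicate 2, around a control mean of 151.5 CPM. In the first set, the turned signs were few. They were those of Pcdh1 (-0.15 to 0.33 without each library), Pcdh17 (-0.22 to 0.14), Pcdhgc3 (-0.30 to 0.077) and the log2 ratio of the Pcdhg sums (0.03 with all libraries, -0.11 to 0.18 without each). The cause was not tested. Of the 9 Pcdha estimates 8 to 9 were above 0 without each library, of the 20 Pcdhb estimates 15 to 17 and of the 21 Pcdhg estimates 8 to 14. With a replicate block 20 members were called, 19 of them shared, Pcdh20 being lost and Cdh8 gained. Over all genes, deviations of same-numbered libraries had a correlation of 0.000974. Such a value cannot show whether these libraries share more than a number, since a shared factor could act on some genes only. Depth limits the clustered genes, at 15 to 138 counts per library for Pcdha.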
